A study of Mus musculus with 12 samples.

Results

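The miRs described here are the products of the *Mir199* and *Mir214* genes, which mark mesenchymal cells and, in liver, stellate cells. They were chosen by name, and 5 of the 1927 entries of the count table hold them, namely mmu-miR-199a-5p, mmu-miR-199b-5p, mmu-miR-214-3p, mmu-miR-214-5p and a joint entry for mmu-miR-199a-3p and *miR-199b-3p*, called the *miR-199a-3p* entry below. miR-seq, which counts the short RNAs of a tissue, was carried out on whole livers of female mouse fetuses at E18.5, with 1 library per fetus. The groups were 5 wild-type fetuses (WT) and 7 littermates that inherited a constitutive deletion of the imprinted *Mir483* from their father (Mir483Pat-KO). The deletion was made in C57BL/6N ES cells, with the selection cassette removed by Cre in culture. Cells of more than 1 ES clone were injected into blastocysts, and the colony was later kept by crosses with C57BL/6J. The liver as a whole thus carries the deletion, and no cell type is targeted.

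*Mir199a-2* and *Mir214* are processed from the same long noncoding transcript, *Dnm3os*, which is transcribed opposite to the dynamin gene *Dnm3* and is known for its activity in embryonic mesenchyme under the transcription factor TWIST1. Each hairpin is cut to a duplex, and either arm, the 5p or the 3p strand, can be loaded into an Argonaute protein, where bases 2 to 8, the seed, pair with target mRNAs. In liver, stellate cells are the pericytes of the sinusoid that store vitamin A and lay down matrix when activated, and *miR-199* and *miR-214* are known for their link to liver fibrosis. *miR-214-3p* is known to target the matrix protein gene *Ccn2* in stellate cells, and *miR-199a-3p* to target *Mtor* and *Met*.

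The mature sequences are shown because they decide which reads the table can tell apart. They are from RefSeq (GRCm38.p6), which matched 4 of the 5 entries, written 5′ to 3′ with the seed in capitals. *miR-199b-5p* is named only.
miR-199a-5p: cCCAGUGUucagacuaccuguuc
miR-199a-3p: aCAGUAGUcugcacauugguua
miR-199b-3p: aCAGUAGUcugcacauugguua
miR-214-3p: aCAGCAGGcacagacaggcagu
miR-214-5p: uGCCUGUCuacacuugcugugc
*miR-199a-3p* and *miR-199b-3p* have the same sequence, so their reads share 1 entry and cannot be assigned to a gene. *miR-199a-5p* is encoded by both *Mir199a-1* and *Mir199a-2*, whose reads are likewise inseparable. Among the mature mouse miRs of that table, which does not hold *miR-199b-5p*, *miR-214-3p* shares its seed with *miR-761*, which had too few counts to be tested.

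All 4 genes lie opposite to dynamin genes. On chromosome 1 of GRCm38, *Mir199a-2* (162217814 to 162217923) and *Mir214* (162223368 to 162223477) are on the plus strand, 5444 bases apart, and overlap exons of *Dnm3os* (162217623 to 162225550). Both lie within intron 14 of a 21-exon transcript of *Dnm3*, which runs on the minus strand. *Mir199b* is on the plus strand of chromosome 2 (32318460 to 32318569), within intron 15 of a 23-exon transcript of *Dnm1*, and *Mir199a-1* on the minus strand of chromosome 9 (21496495 to 21496564), within intron 15 of a 21-exon transcript of *Dnm2*. The hairpins below show the arms of the genes, with the mature miRs listed by RefSeq in capitals.
Mir199a-2: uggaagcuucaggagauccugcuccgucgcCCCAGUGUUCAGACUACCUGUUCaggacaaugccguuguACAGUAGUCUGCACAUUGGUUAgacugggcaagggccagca
Mir199b: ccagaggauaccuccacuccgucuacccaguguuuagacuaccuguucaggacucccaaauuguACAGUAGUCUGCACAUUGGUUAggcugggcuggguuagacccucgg
Mir214: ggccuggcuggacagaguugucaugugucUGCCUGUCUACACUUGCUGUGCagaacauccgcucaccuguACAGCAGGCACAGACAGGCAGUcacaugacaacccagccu
Aligned without gaps, the best match of *miR-199a-5p* in the *Mir199b* hairpin holds 22 of its 23 bases and a single substitution, C10U (the base of *miR-199a-5p*, its position from 1 at the 5′ end, then the base of the hairpin). The substitution lies outside bases 2 to 8, so the *Mir199b* hairpin holds the seed of *miR-199a-5p*, and the level of either 5p miR rests on reads that differ at this base.

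The deposited values are read counts per mature miR, with totals of 658665 to 1211160 per library. *miR-483-3p* had 733 to 1281 reads in each WT library and 0 to 19 in each Mir483Pat-KO library, and *miR-483-5p* had 245 to 371 and 0 to 4. Counts were scaled by TMM and are given as CPM (counts scaled to a common library size). Of 388 miRs that passed the filter on low counts, 8 (2.06%) were called between genotypes, that is, had a Benjamini-Hochberg adjusted p under 0.05 in the quasi-likelihood F-test of edgeR. All 5 *miR-199* and *miR-214* entries passed this filter, and their lowest count in any library was 23.

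*miR-199a-5p* and the *miR-199a-3p* entry were moderately abundant, *miR-199b-5p* lower, and both arms of *miR-214* low. Together the 5 entries reached 2932 CPM (SD 733, n = 5) on average for WT and 3291 CPM (SD 561, n = 7) for Mir483Pat-KO, between 0.198% and 0.382% of the counts of any library. The 3 *miR-199* entries held 95.7% (SD 0.455, n = 5) of these reads for WT and 96.5% (SD 0.427, n = 7) for Mir483Pat-KO. Counts of different miRs also depend on how well each is ligated and amplified, so levels are compared between miRs only as read counts. The livers were not sorted into cell types, so fewer mesenchymal cells and less of a miR per cell cannot be told apart, and that stellate cells are the source was not tested.

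*miR-199a-5p* is the 5p arm known for its link to fibroblast activation. Its levels in WT were 1038, 1390, 1923, 1856 and 1140 CPM in replicates 1 to 5. In Mir483Pat-KO the lowest, median and highest were 1034, 1418 and 1652 CPM. The groups overlapped throughout, and WT had both the highest value and the wider spread, with a coefficient of variation of 27.6% against 15.6%. It ranked between 49 and 71 by count in each library.

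The *miR-199a-3p* entry carries the arm known to target *Mtor*. Its levels in WT were 791.95, 1060, 1370, 1483 and 1054 CPM in replicates 1 to 5. In Mir483Pat-KO the lowest, median and highest were 1074, 1730 and 2059 CPM. Mir483Pat-KO replicates 2 and 3 lay within the WT range, and the other 5 Mir483Pat-KO libraries lay above it.

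*miR-199b-5p*, the product of the chromosome 2 gene, had 148, 197, 219, 198 and 160 CPM in WT replicates 1 to 5. In Mir483Pat-KO its lowest, median and highest levels were 144, 176 and 228 CPM. The ranges of the genotypes nearly coincided. Of the 5p reads of *miR-199*, those of *miR-199a-5p* made up 88.6% (SD 1.38, n = 5) for WT and 88.1% (SD 1.44, n = 7) for Mir483Pat-KO.

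*miR-214-5p* had 49.8, 67.9, 88.6, 104 and 67.4 CPM in WT replicates 1 to 5. In Mir483Pat-KO it lay between 60.7 and 93.5 CPM with a median of 71.9 CPM, within the WT range. *miR-214-3p*, the arm known to target *Ccn2*, had 34.3, 60.7, 51.0, 78.0 and 30.2 CPM in WT replicates 1 to 5. In Mir483Pat-KO it lay between 34.2 and 50.1 CPM with a median of 37.1 CPM, again within the WT range. These levels rest on 23 to 73 reads of the 3p and 39 to 97 reads of the 5p arm in each library, so their counting error is relatively larger than that of *miR-199*.

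**Figure D1:**
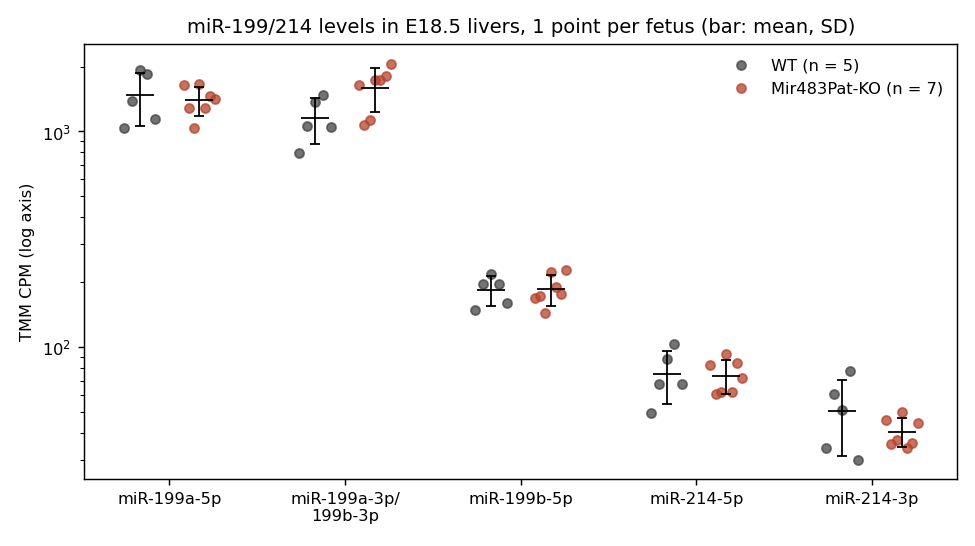
TMM CPM (log axis) of the 5 *miR-199* and *miR-214* entries, with 1 point per fetus and a bar for the mean and SD, in WT (n = 5) and Mir483Pat-KO (n = 7). The *miR-199a-3p* entry is the one in which most Mir483Pat-KO fetuses, 5 of 7, lie above the WT range.

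The order of the levels was the same in all 12 libraries below the top pair, with the *miR-199a-3p* entry above *miR-199b-5p*, *miR-199b-5p* above *miR-214-5p*, and *miR-214-5p* above *miR-214-3p*. The least separated of these was *miR-214-5p* over *miR-214-3p*, between 1.12-fold and 2.34-fold. At the top, *miR-199a-5p* was above the *miR-199a-3p* entry in 5 of 5 WT libraries, whereas it was above it in 1 of 7 Mir483Pat-KO libraries. In Mir483Pat-KO replicate 1 the 2 entries were nearly level, at 1165 reads of *miR-199a-5p* and 1166 of the *miR-199a-3p* entry. In each genotype the means of these 2 entries differed by less than the larger of their SDs over fetuses, and their order within a library is compared as a ratio below.

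None of the 5 entries was called between genotypes by edgeR, DESeq2 or limma-voom, and none had genotypes that did not overlap, which held for 11 of the 388 miRs (2.84%). By edgeR 1 entry had an unadjusted p under 0.05, as did 17.5% of all miRs tested. This was the *miR-199a-3p* entry, with a mean of 1152 CPM (SD 276, n = 5) for WT and of 1595 CPM (SD 363, n = 7) for Mir483Pat-KO. The log2 fold change came to 0.47 (standard error 0.17, 95% interval 0.11 to 0.84), with an unadjusted p of 0.0139 and a Benjamini-Hochberg adjusted p of 0.176 in edgeR. The difference thus did not pass the threshold, and 37 of the 388 miRs (9.54%) were higher in Mir483Pat-KO at an unadjusted p under 0.05.

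The other arms showed no shared direction. *miR-199a-5p* averaged 1469 CPM (SD 405, n = 5) for WT and 1395 CPM (SD 218, n = 7) for Mir483Pat-KO, a log2 fold change of -0.073 (95% interval -0.40 to 0.25). *miR-199b-5p* was at 184 ± 29.1 CPM (SD, n = 5) and 186 ± 30.3 CPM (SD, n = 7), a log2 fold change of 0.021 (95% interval -0.24 to 0.29). *miR-214-5p* was at 75.4 ± 20.9 CPM (SD, n = 5) and 73.9 ± 13.2 CPM (SD, n = 7), a log2 fold change of -0.020 (95% interval -0.40 to 0.35). *miR-214-3p* was at 50.8 ± 19.6 CPM (SD, n = 5) and 40.6 ± 6.29 CPM (SD, n = 7), a log2 fold change of -0.32 (95% interval -0.78 to 0.15). Adjusted p-values of these 4 entries lay between 0.490 and 0.976 by the same edgeR test. The intervals hold changes of up to 0.29 for *miR-199b-5p*, of up to 0.40 for *miR-199a-5p* and *miR-214-5p* and of up to 0.78 for *miR-214-3p* on the log2 scale. Changes within the intervals were therefore not excluded. The median log2 fold change was -0.020 over the 5 entries and 0.0028 over all 388 miRs.

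WT libraries carry indices 37 to 41 and Mir483Pat-KO libraries 42 to 48, so index order and genotype cannot be told apart between groups. Fitted together with the index number, the log2 fold change of the *miR-199a-3p* entry was -0.20 (standard error 0.27), the opposite direction. By animal number, 4 WT and 4 Mir483Pat-KO fetuses were below 450, here the lower range, while 1 WT and 3 Mir483Pat-KO fetuses were above it, here the upper range. Within the lower range, the *miR-199a-3p* entry had a log2 fold change of 0.23 (standard error 0.21), and its medians were 1215 CPM in WT and 1380 CPM in Mir483Pat-KO. In the upper range it was 1054 CPM in the WT fetus and 1730 to 2059 CPM in Mir483Pat-KO. Upper-range fetuses carry the last index numbers of each genotype, 41 in WT and 46 to 48 in Mir483Pat-KO. Index order and animal-number range thus overlap within each genotype.

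**Figure D2:**
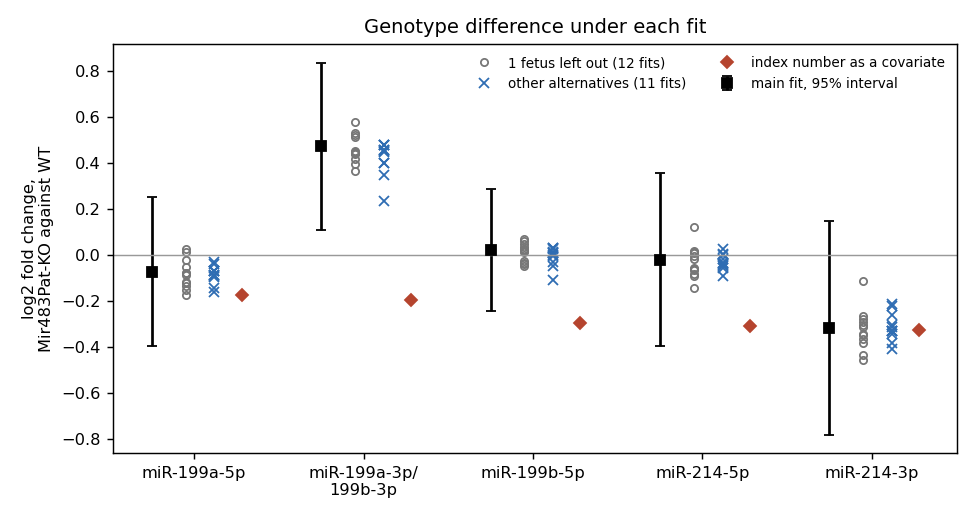
Log2 fold change of each *miR-199* and *miR-214* entry, Mir483Pat-KO against WT, from edgeR with its 95% interval (squares), with each of 12 fetuses left out (circles), under 11 other alternatives (crosses) and with the index number as a covariate (diamonds). The *miR-199a-3p* entry lies between 0.23 and 0.58 in all circles and crosses and at -0.20 with the covariate.

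Both arms of a hairpin come from the same precursor, and their ratio within a library does not depend on the scaling. For *miR-199* the 3p counts were divided by the summed 5p counts of *miR-199a* and *miR-199b*. This ratio was 0.668, 0.668, 0.640, 0.722 and 0.811 in WT replicates 1 to 5. It was 0.907, 0.739, 0.955, 0.926, 1.17, 1.10 and 1.25 in Mir483Pat-KO replicates 1 to 7. The 5p arm had more reads in all 5 WT libraries and in 4 of 7 Mir483Pat-KO libraries. Mir483Pat-KO replicate 2 alone lay within the WT range, and the other 6 Mir483Pat-KO libraries lay above every WT library.

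On the log2 scale the *miR-199* ratio averaged -0.52 (SD 0.14, n = 5) for WT and -0.0087 (SD 0.26, n = 7) for Mir483Pat-KO, a difference of 0.51 (95% interval 0.22 to 0.79) or 1.42-fold. The two-sided exact permutation test over libraries gave p = 0.00631, or 0.102 after Benjamini-Hochberg adjustment over 97 ratios. These are arm ratios of hairpins with both arms past the filter, and the ratio of *miR-199a-5p* to *miR-199b-5p*. Apart from *miR-199*, hairpins with an arm in a joint entry were left out. No ratio among the 97 (0%) passed the adjusted threshold in this test, 2 (2.06%) had genotypes that did not overlap, 19 (19.6%) had an unadjusted p under 0.05, and 1 (1.03%), for another hairpin, was called by limma on the same ratios, a fit added after the data were seen. The smallest p that 5 against 7 libraries allow is 0.00126 before adjustment. A ratio alone at this p would not pass the adjusted threshold over the 97 ratios.

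Within the lower animal-number range the *miR-199* ratio was 0.640 to 0.722 in 4 WT fetuses and 0.739 to 0.955 in 4 Mir483Pat-KO fetuses, without overlap (log2 difference 0.38, two-sided exact permutation test, p = 0.0286, the smallest p that 4 against 4 allow, and 0.277 after adjustment over the 97 ratios). In this range 10 of the 97 ratios (10.3%) had genotypes that did not overlap. A ratio could pass the adjusted threshold here only if most of the 97 were at this smallest p. In the upper range it was 0.811 in the WT fetus and 1.10 to 1.25 in 3 Mir483Pat-KO fetuses. With the animal-number range as a factor, a limma fit added after the data were seen gave a difference of 0.42 (95% interval 0.23 to 0.62, adjusted p = 0.0303 by limma), where 2.06% of the ratios were called. When the index number entered the fit as a linear term, the genotype term was -0.048 (95% interval -0.38 to 0.28), and the ratio moved by 0.093 log2 units per index number (standard error 0.021). Upper-range fetuses carry the last index numbers of each genotype, so this slope cannot be told apart from a difference between the animal-number ranges. The part of index order in the difference between genotypes was also not separable from that of the deletion.

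The 5p arm of *miR-214* had more reads than the 3p arm in every library. The 3p to 5p ratio was 0.692, 0.895, 0.579, 0.754 and 0.452 in WT replicates 1 to 5 and between 0.430 and 0.626 in Mir483Pat-KO, with a median of 0.563. The 3 highest values were in WT replicates 2, 4 and 1. The 5p arm held 60.3% (SD 6.22, n = 5) of the *miR-214* reads for WT and 64.4% (SD 2.78, n = 7) for Mir483Pat-KO. The log2 ratio differed by -0.24 between genotypes (95% interval -0.60 to 0.12, two-sided exact permutation test, p = 0.167, adjusted p = 0.475), within the spread between fetuses. The ratio of *miR-199a-5p* to *miR-199b-5p* was between 6.98 and 9.37 in WT and between 6.20 and 9.59 in Mir483Pat-KO, a log2 difference of -0.063 (95% interval -0.33 to 0.20, two-sided exact permutation test, p = 0.615, adjusted p = 0.901).

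**Figure D3:**
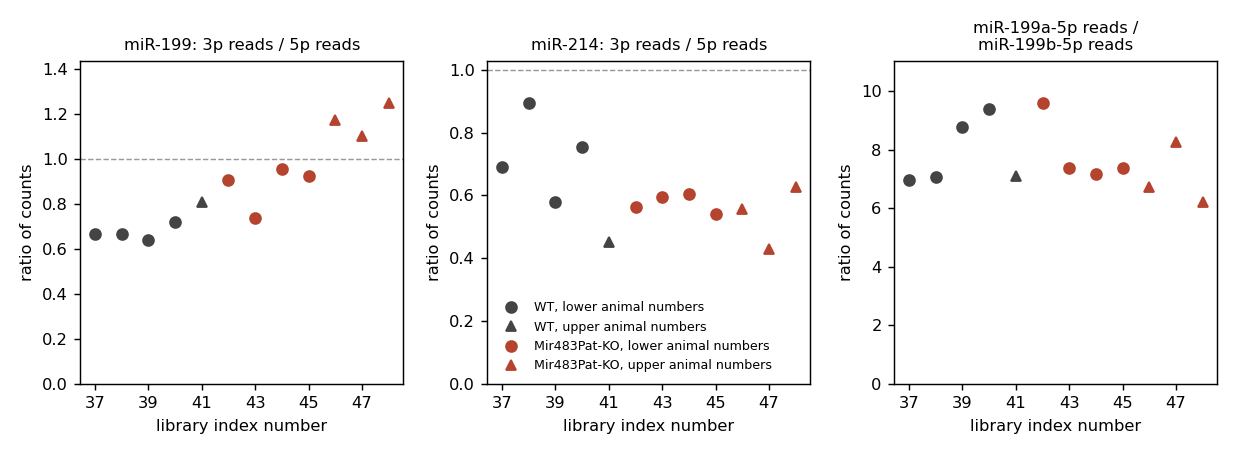
Ratios of counts within each library against the library index number, for *miR-199* 3p over 5p, *miR-214* 3p over 5p and *miR-199a-5p* over *miR-199b-5p*, in WT (grey) and Mir483Pat-KO (red), with circles for lower and triangles for upper animal numbers and a dashed line at equal reads. WT libraries have *miR-199* ratios of 0.640 to 0.811 and Mir483Pat-KO libraries of 0.739 to 1.25, with higher values at higher index numbers.

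The 5 entries varied together from fetus to fetus. With the genotype means removed from log2 CPM, Pearson's r over the 12 libraries was positive for all 10 pairs, from 0.55 for the *miR-199a-3p* entry with *miR-214-3p* to 0.90 for *miR-199a-5p* with *miR-214-5p*. The latter pair comes in part from the same *Dnm3os* transcript, and its Spearman's rho was 0.92. Of the 387 other miRs tested, *miR-214-5p* had the highest r with *miR-199a-5p*, and *miR-199a-5p* had the highest with *miR-214-5p*. The other 3 entries took places 3 to 5 for *miR-199a-5p*, while its median r over the 387 miRs was -0.018. The weakest tie was that of *miR-214-3p* with the *miR-199a-3p* entry, where it took place 25 of the 387. Without the 2 libraries farthest from the median level, r was 0.92 for *miR-199a-5p* with *miR-214-5p* and 0.45 for the *miR-199a-3p* entry with *miR-214-3p*.

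These correlations are descriptions over 12 libraries that share their scaling and differ in depth. *miR-199a-5p* was lower in libraries with more counts (r = -0.50 with log2 total counts, and -0.55 with the genotype means removed), and WT replicate 1, with the largest total, had the lowest level of the *miR-199a-3p* entry. The part of depth in the co-variation was not tested. Without removal of the genotype means, r was 0.59 for *miR-199a-5p* with the *miR-199a-3p* entry and 0.24 for *miR-214-3p* with the *miR-199a-3p* entry, the lowest of the 10 pairs.

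**Figure D4:**
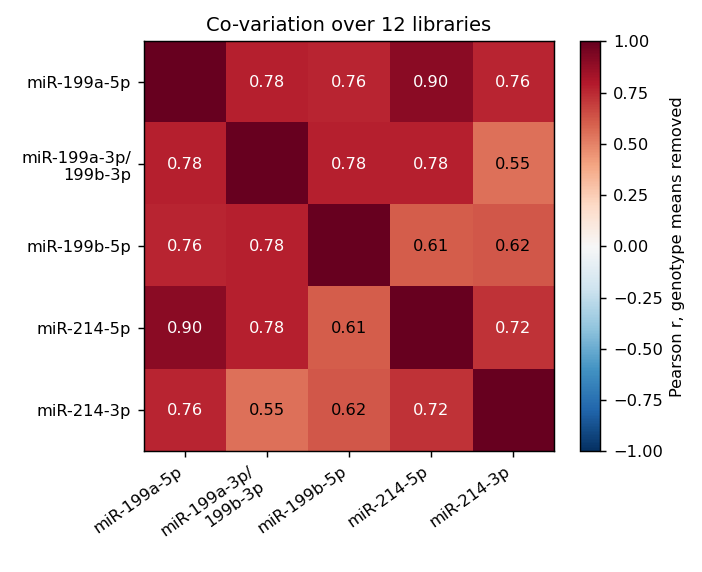
Pearson's r of log2 CPM between the 5 *miR-199* and *miR-214* entries over 12 libraries, with the genotype means removed. Both axes list the entries, and the colours run from -1 to 1. All pairs are positive, and *miR-199a-5p* with *miR-214-5p* is the strongest at 0.90.

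Outside the set, the miRs most like each entry were taken among the 220 miRs whose mean log2 CPM was 6 or more. For *miR-199a-5p* they were *miR-141-3p* (r = 0.74), *miR-450b-5p* (r = 0.65) and *miR-770-5p* (r = 0.62). For the *miR-199a-3p* entry they were *miR-431-3p* (r = 0.75), *miR-152-3p* (r = 0.73) and *miR-411-3p* (r = 0.68). *miR-199b-5p* was most like *miR-450b-5p* (r = 0.70), *miR-214-3p* most like *miR-450b-5p* (r = 0.75), and *miR-214-5p* most like *miR-770-5p* (r = 0.66). The 3 most like each of the 5 entries were 8 different miRs, of which 5 (62.5%) are encoded between *Dlk1* and *Dio3*, an imprinted domain active in fetal tissues, against 58 of the 220 compared (26.4%). The 5 entries vary together and share several of these miRs, so the 8 are not independent picks, and the shares were not tested. These r values are also over 12 libraries with the genotype means removed, and none of the 8 miRs was called between genotypes by edgeR.

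Markers of cell types set these levels in context. *miR-143-3p* and *miR-145a-5p* are also in the list of fibroblast, stellate cell and collagen miRs below. The miRs of smooth muscle and pericytes, *miR-143* and *miR-145a*, summed to 28562 to 31748 CPM in WT and 27873 to 32979 CPM in Mir483Pat-KO, nearly all of it *miR-143-3p*. All 4 of them passed the filter and none was called. Their log2 fold changes had a median of -0.24, and *miR-143-3p*, at -0.0056, was on the other side of 0 with upper-quartile scaling. With the genotype means removed, r with *miR-199a-5p* was 0.47 for *miR-143-3p*, 0.21 for *miR-145a-5p*, 0.38 for *miR-145a-3p* and -0.47 for *miR-143-5p*. With the *miR-199a-3p* entry r was 0.28, 0.36, -0.11 and -0.72 in the same order. The 4 hepatocyte miRs summed to 173789 to 201819 CPM in WT and 165571 to 214704 CPM in Mir483Pat-KO, so the sum of the 5 entries was small beside the parenchymal signal of the tissue. *miR-122-5p*, the main miR of hepatocytes, had r = -0.64 with the *miR-199a-3p* entry and -0.11 with *miR-199a-5p*. Its passenger *miR-122-3p* had r = -0.72 and -0.45 with the same entries, and over the 4 hepatocyte miRs r was between -0.72 and -0.080 with the *miR-199a-3p* entry and between -0.48 and -0.11 with *miR-199a-5p*.

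No blood, endothelial or epithelial miR of the lists was called by edgeR. The 4 erythroid miRs all had log2 fold changes above 0 under 4 scalings, with a median log2 fold change of 0.19 and sums of 23825 to 31943 CPM in WT and 25888 to 37774 CPM in Mir483Pat-KO. The 3 leukocyte miRs tested, of 5 listed, also had log2 fold changes above 0, with a median of 0.14 and sums over the list of 11332 to 14581 and 13106 to 14798 CPM. The 2 endothelial miRs had log2 fold changes below 0, with a median of -0.19 and sums of 952 to 1260 and 724 to 1219 CPM. Of the 5 epithelial miRs 4 had log2 fold changes above 0 (3 when scaled by RLE or by library size), with a median of 0.12, while their sums were 1189 to 1994 and 1178 to 1657 CPM. One of them, *miR-141-3p*, is the miR most like *miR-199a-5p* given above, at 72.8 CPM (SD 36.1, n = 5) for WT and 72.4 CPM (SD 30.0, n = 7) for Mir483Pat-KO, whereas the other 4 had r between 0.083 and 0.27 with *miR-199a-5p*. The 3 striated muscle miRs were too low to test, at 6.04 to 24.6 CPM in WT and 0 to 22.4 CPM in Mir483Pat-KO, and *miR-206-3p* had no read in 7 libraries. The part of these cell types in the difference of the *miR-199a-3p* entry was not tested.

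Of 13 miRs tied to fibroblasts, stellate cells and collagen, 11 could be tested and none was called, with 3 log2 fold changes above 0 and 8 below it and a median of -0.057 (4 above 0 with upper-quartile scaling, and 2 above 0 and a median of -0.13 with library size alone, where the median over all miRs was -0.063). *miR-29a-3p*, *miR-29b-3p* and *miR-29c-3p*, known to repress collagen genes, had log2 fold changes of -0.068, 0.047 and -0.021. *miR-21a-5p*, known for its rise in fibrosis, averaged 21037 CPM (SD 1059, n = 5) for WT and 19664 CPM (SD 855, n = 7) for Mir483Pat-KO, a log2 fold change of -0.097. Over the 11 miRs, r with *miR-199a-5p* ran from -0.48 for *miR-29b-3p* to 0.65 for *miR-125b-5p*, and r with the *miR-199a-3p* entry from -0.69 for *miR-29b-3p* to 0.73 for *miR-152-3p*. *miR-10b-5p* and *miR-100-5p* were listed but had at most 8 and 16 reads in a library. Over the 31 miRs tested from all lists, those of cell types included, edgeR and limma-voom called none and DESeq2 called 1, an epithelial miR. Among all 388 miRs, edgeR called 8, limma-voom 10 and DESeq2 27. By edgeR 4 of the 31 had an unadjusted p under 0.05, 2 erythroid and 2 epithelial, against 17.5% of all miRs tested.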

How the data were processed

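Total RNA from whole E18.5 livers was made into TruSeq Small RNA libraries and sequenced on a NovaSeq6000 by the authors, who aligned and counted reads with miRge 3.0. The deposited values are whole-number counts per mature miR, neither normalized nor pooled. The miR reference and adapter settings are not given in the sources used here. Genotypes and replicate numbers came from the sample labels and columns were matched by animal number.

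miRs were kept by filterByExpr (minimum count 10, minimum total count 15), which left 388 of 682 with any count. Counts were scaled by TMM and tested with glmQLFit (legacy = TRUE) and glmQLFTest (edgeR 4.0.16, R 4.3.3), and genotype was the sole term. Standard errors are the log2 fold change divided by the root of F. Log2 CPM used a prior count of 2, and ratios used counts plus 0.5. Ratios were compared by exact permutation over libraries. limma 3.58.1 and DESeq2 1.42.0 gave alternatives, and figures used matplotlib 3.10.9. In 368 simulated miRs, 66 were changed 1.5-fold, 64 were changed 2-fold and 58 were changed 4-fold. The same edgeR code called 69.7% of the 1.5-fold and 90.6% of the 2-fold changes, and 2.41% of its calls were false. The share of changed miRs was far larger than the 2.06% called in the data, so these rates check the code. They do not give the power of the comparison of genotypes.

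No library was found deposited more than once (chi-square per degree of freedom of 5.53 or more in every pair of the same genotype). p-values set the difference between genotypes against the spread between fetuses, each taken as independent. The sample labels do not name the litters, so litter was in none of the fits. Named miRs were the 5 entries, *miR-483*, up to 3 miRs most like each entry, and list members whose values bore on a result. The miRs, lists and tests were chosen with earlier results of these data known. Coordinates are from GENCODE M21 (GRCm38), the build in the submitters' processing notes. Alternatives tried were other scalings, filters, dispersions and tools, the replicate block, the animal-number range, the index number, and leaving out each fetus. The mRNA libraries were not analysed here.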

Additional observations from a re-analysis of the deposited data

How the results depend on the processing

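None of the 5 entries was called under 12 other settings or with any of the 12 fetuses left out. For the *miR-199a-3p* entry the log2 fold change stayed between 0.36 (without WT replicate 1) and 0.58 (without WT replicate 4) as fetuses were left out, with adjusted p from 0.0957 to 0.360 by edgeR, and it turned to -0.20 with the index number as a covariate. *miR-199b-5p*, at 0.021 in the reported fit, was at -0.049 with library size alone, -0.0036 with no filter, -0.030 with the replicate block, -0.30 with the index number and -0.11 in the lower animal-number range alone. *miR-214-5p* was at 0.0014 with edgeR 4 dispersion, 0.027 with limma-voom and 0.00083 with the animal-number range, but -0.31 with the index number, where *miR-199a-5p* was at -0.17 and *miR-214-3p* at -0.33. With 1 fetus left out, *miR-199a-5p* lay between -0.18 and 0.024 (above 0 without WT replicate 3 or 4), *miR-199b-5p* between -0.050 and 0.067 (below 0 without WT replicate 1 or 5 or Mir483Pat-KO replicate 4 or 7), *miR-214-5p* between -0.14 and 0.12 (above 0 without WT replicate 3 or 4 or Mir483Pat-KO replicate 3 or 5), and *miR-214-3p* between -0.46 (without WT replicate 5) and -0.11 (without WT replicate 4).

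The log2 difference of the *miR-199* ratio lay between 0.45 and 0.58 with 1 fetus left out, was 0.42 and past the threshold with limma and the animal-number range (added after the data were seen), and was -0.048 with the index number, where the ratios of *miR-214* and of *miR-199a-5p* to *miR-199b-5p* were at 0.086 and 0.13. With 1 fetus left out these lay between -0.38 (without WT replicate 5) and -0.13 (without WT replicate 2), and between -0.12 and 0.0038 (without WT replicate 4). The number of miRs called, 8, was 14 with library size alone, 27 with DESeq2, 3 with the replicate block, 5 with the animal-number range, 3 with the index number, 2 in the lower range alone and 3 (without WT replicate 3) to 12 (without Mir483Pat-KO replicate 2) with 1 fetus left out. The cause was not tested. Same-numbered fetuses are different animals, and the correlation of their deviations was between -0.24 and 0.23, so the numbers do not pair them. With the replicate block, the *miR-199a-3p* entry was at 0.35 and the *miR-199* ratio at 0.41 (exact sign-flip permutation p = 0.0625, the smallest that 5 pairs allow). Counts of 23 to 97 reads limit *miR-214*.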
